A study of Homo sapiens with 43 samples.

Results

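The genes described here encode the zinc-dependent proteases of the matrix metalloproteinase (MMP), ADAM and ADAMTS families, the ADAMTS-like (ADAMTSL) proteins and the tissue inhibitors of metalloproteinases (TIMP). They were taken by symbol: every protein-coding gene of the count table whose current symbol was one of these family names followed by a number. This gave 43 of 20052 genes: 13 ADAM, 13 ADAMTS, 4 ADAMTSL, 10 MMP and 3 TIMP genes. Counts were high enough to test 39 of them, and MMP1, MMP25, ADAM23 and ADAMTS20 were below the count filter. MMP3, MMP9, TIMP4 and ADAMTS4 were not analysed here.

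HMC3 is an immortalised human cell line that is distributed as microglia, the macrophages of the brain. All flasks held HMC3 cells of a single passage, so each group is a treatment of a single line, and total RNA was sequenced. On day 3 the groups were dexamethasone at 1 µM, dexamethasone at 0.01 µM, hydrocortisone at 10 µM and hydrocortisone at 0.01 µM, the ethanol vehicle of each of these 4 doses, and medium alone, with 3 libraries in each group. After 3 days the cells of each flask were reseeded in hormone-free medium, and day 6 libraries were made after a further 3 days (3 libraries of each hormone dose and 1 of each of the 4 vehicles). The day 3 comparisons ask what a hormone changed beyond its own vehicle, the dose comparisons whether the dose mattered, and the day 6 comparisons what was left after washout. The labels name separate flasks of the line, so p-values measure the spread between flasks within the groups of 3 libraries. The 4 vehicle groups of day 6 hold 1 library each and add nothing to that estimate. Day 6 and day 3 libraries may come from the same flasks, and the main washout tests treat them as independent.

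Metalloproteinases cut proteins outside the cell or at its surface. MMPs degrade collagens and other matrix proteins, ADAMs are mostly membrane-anchored and several release the outer domains of receptors, growth factors and adhesion molecules ("shedding"), and ADAMTS proteases are secreted and act on proteoglycans, procollagens and microfibril proteins. ADAMTSL proteins share the ancillary domains of ADAMTS proteases and lack a catalytic one, and TIMPs block the active sites. Among brain macrophages, ADAM10 and ADAM17 are known for releasing surface receptors such as TREM2. Dexamethasone, a synthetic analogue that differs from hydrocortisone by an added fluorine, an added methyl group and an added ring double bond, and hydrocortisone (cortisol) both act through the glucocorticoid receptor, which is known to restrain several MMP genes through the transcription factor AP-1.

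Total counts ran from 7638840 to 24426643 per library, and ribosomal RNA took between 9.90% and 94.9% of them (median 29.3%). That share was above 75% in 7 libraries of 7 groups. The highest were dexamethasone 0.01 µM replicate 3 and replicate 1 of the vehicle of hydrocortisone 10 µM, both of day 3, where 1083395 and 2104860 other counts remained. Values without these 7 libraries stand beside the calls that were lost without them. Levels are given in CPM, the usual depth-scaled count, here with TMM-scaled library sizes. No microglia marker of the 3 analysed (CSF1R, TREM2 and CD68) reached a median of 1 CPM over the libraries (here CPM of the counts other than ribosomal RNA), and 9 further markers of the 12 chosen were not analysed here. Of the fibroblast and pericyte markers 8 of 11 analysed did (13 chosen). Of the astrocyte markers 3 of 3 analysed did (6 chosen, GJA1 at 194 CPM), and of the endothelial markers 0 of 4 (6 chosen). The other chosen markers were not analysed here. The cells are therefore called HMC3 here and not microglia. In RNA from whole flasks, fewer cells of a type and less RNA per cell cannot be told apart.

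In vehicle libraries of day 3, a few members made up most of the family's transcripts. Levels were compared between genes as CPM per kb of exon, over the 12 vehicle libraries (mean ± SD). ADAM9, a membrane sheddase, led with 68.2 ± 2.35, followed by the secreted proteoglycanase ADAMTS1 (44.3 ± 8.56), TIMP2 (37 ± 2.12) and TIMP1 (26.4 ± 1.69). MMP14, the membrane-type collagenase that activates MMP2 with the help of TIMP2, was the highest MMP at 9.92 ± 0.529. ADAM19 (9.25 ± 0.912) and MMP14 did not differ beyond their spread, nor did ADAM10 (4.87 ± 0.32) and ADAM15 (4.68 ± 0.421). MMP2, gelatinase A, which MMP14 activates, stood far lower, at 0.0818 ± 0.0476. Before scaling to length, ADAM9, ADAMTS1 and TIMP2 held 31.8%, 21.1% and 14.1% of the family's summed CPM.

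**Figure D1:**
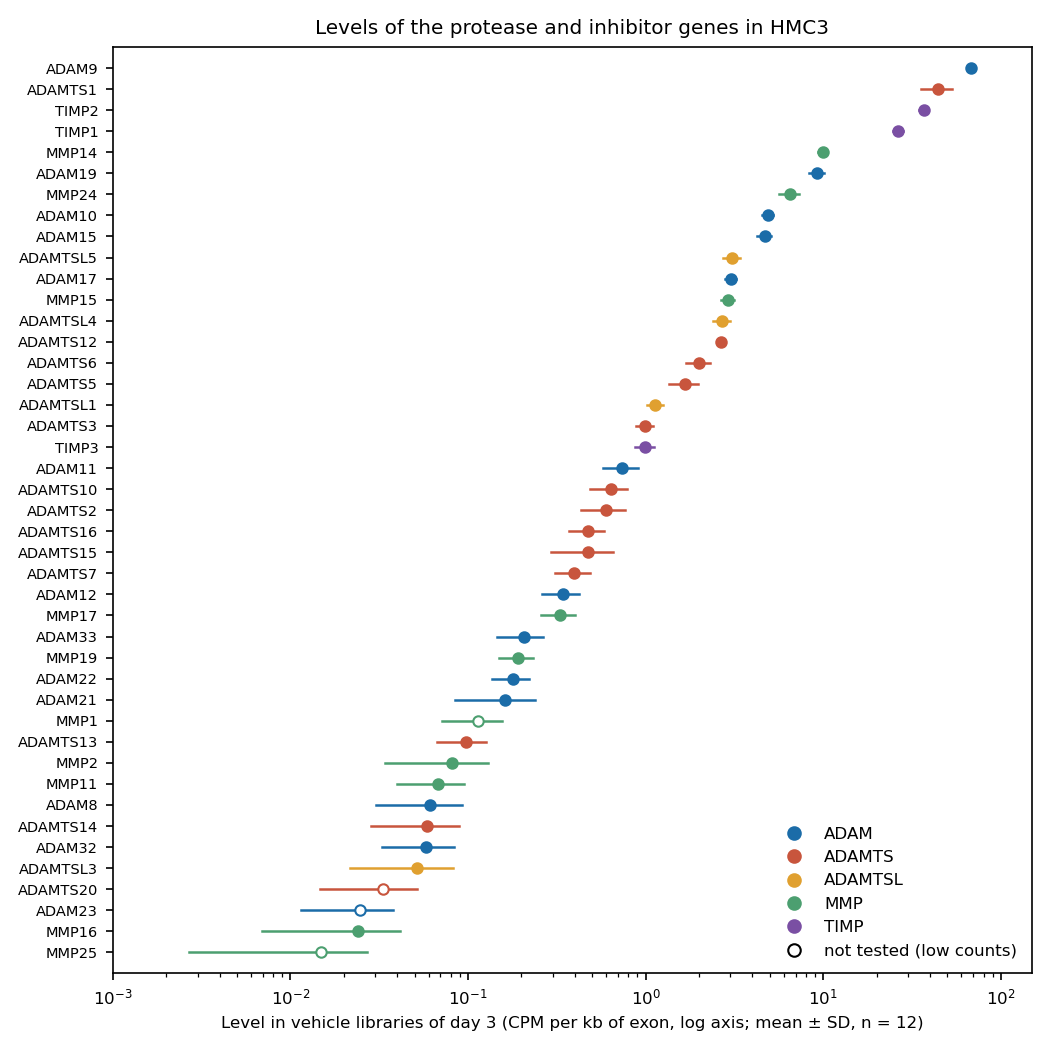
Level of each of the 43 genes in the 12 vehicle libraries of day 3, in CPM per kb of exon on a log axis; points are means, lines run from the mean minus 1 SD to the mean plus 1 SD, colours mark the family and open points mark the 4 genes below the count filter. ADAM9, ADAMTS1, TIMP2 and TIMP1 stand at the top, and MMP2 and MMP1 in the lower part.

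Both doses of dexamethasone and the high dose of hydrocortisone changed many of these genes on day 3. More of them went downward than upward, as did all tested genes. With dexamethasone at 1 µM, 20 of 39 tested members passed the test (adjusted p below 0.05), 8 higher and 12 lower, where 22.6% of all 16816 tested genes passed (10.3% higher and 12.3% lower). With dexamethasone at 0.01 µM, 14 passed, 6 higher and 8 lower, where 14% of all genes passed (6.15% higher and 7.84% lower). Leaving ribosomal RNA out of the library sizes gave 4 higher and 10 lower, and leaving out the libraries above 75% ribosomal RNA gave 3 higher and 10 lower. Under these alternatives the calls over all genes were not counted by direction. With hydrocortisone at 10 µM, 18 passed, 5 higher and 13 lower, where 13.1% of all genes passed (5.58% higher and 7.5% lower). The median log2 fold change of the members was 0.03, -0.09 and -0.09 in these comparisons, against 0.02, 0.00 and 0.01 over all tested genes. Hydrocortisone at 0.01 µM changed no member and no gene in edgeR's test (0% of all genes), no member at an unadjusted p below 0.05, and none in DESeq2.

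The same 12 members passed in all 3 comparisons with an effect, each in one direction. ADAM12, ADAM19, ADAMTS1, ADAMTS5, ADAMTS6, ADAMTS16, ADAMTSL1 and TIMP3 were lower, and ADAM10, ADAMTS7, ADAMTS14 and ADAMTSL4 were higher. Over all tested genes 6.68% passed in all 3 in one direction (2.69% higher and 3.99% lower). By class, 8, 8 and 7 of 12 tested ADAMTS genes passed in the 3 comparisons, 2, 2 and 2 of 4 ADAMTSL genes, 6, 3 and 3 of 12 ADAM genes, 2, 0 and 4 of 8 MMP genes, and 2, 1 and 2 of 3 TIMP genes; differences between the classes were not tested. The summed level of the 43 members lay between 1241 and 1282 CPM in the 9 libraries of these 3 hormone groups, against 1405 to 1527 CPM in their 9 vehicle libraries. Hydrocortisone 0.01 µM libraries also lay below their vehicle libraries, with 1487 to 1502 CPM against 1522 to 1563 CPM. The sums were not tested. ADAMTS1 alone averaged 127 ± 15.8 CPM in dexamethasone 1 µM libraries and 302 ± 63.2 CPM in vehicle libraries (SD, n = 3 each).

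**Figure D2:**
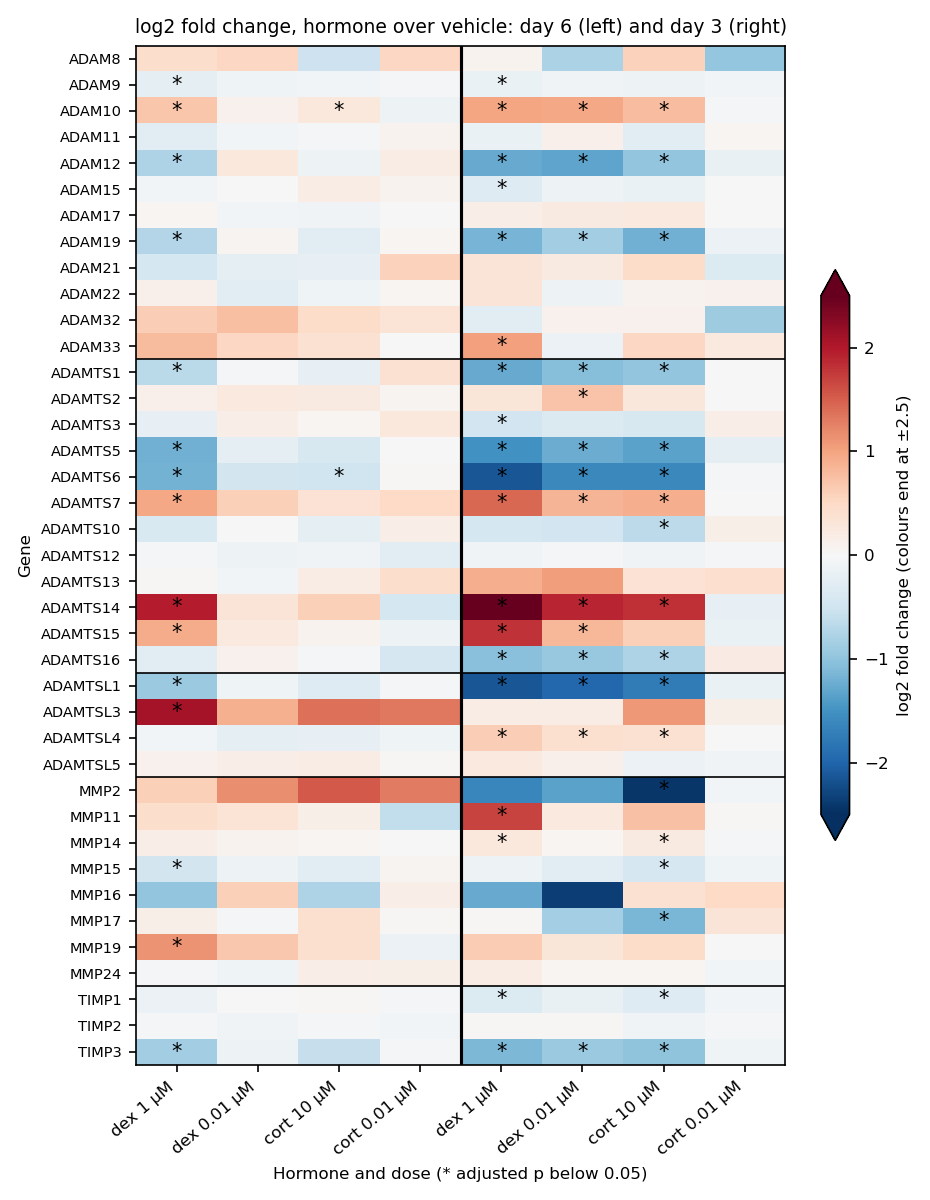
Log2 fold change of the 39 tested members (rows, by family) for each hormone dose over vehicle on day 6 (left of the black line) and day 3 (right); red is higher and blue lower with hormone, colours end at ±2.5 and asterisks mark an adjusted p below 0.05. The hydrocortisone 0.01 µM columns hold no asterisk, and 12 rows carry one in the other 3 columns of day 3.

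The proteoglycan-cleaving proteases ADAMTS1 and ADAMTS5 both fell on day 3. They act on aggrecan and versican, and their genes lie next to each other on chromosome 21 of GRCh38 (26835747 to 26845409 and 26917912 to 26966513, both on the minus strand, 72503 bases apart). ADAMTS1 had 109, 134 and 138 CPM in dexamethasone 1 µM libraries, against 258, 275 and 375 CPM in their vehicle libraries. It had 140.0, 132 and 174 CPM with dexamethasone 0.01 µM, against 292, 276 and 361 CPM with vehicle. Hydrocortisone 10 µM libraries held 121, 139 and 128 CPM of it, against 241, 250.1 and 281 CPM in vehicle libraries. Every hormone library lay below every vehicle library, and the hormone libraries were close to one another. The log2 fold changes were -1.25 for dexamethasone 1 µM (SE 0.14, adjusted p = 2.53e-08), -1.06 for dexamethasone 0.01 µM (SE 0.13, adjusted p = 9.04e-07) and -0.99 for hydrocortisone 10 µM (SE 0.13, adjusted p = 2.73e-06).

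ADAMTS5, also called aggrecanase-2, had 5.16, 4.67 and 4.93 CPM in dexamethasone 1 µM libraries, against 14.3, 12.4 and 15.7 CPM in vehicle libraries. Dexamethasone 0.01 µM libraries showed 6.64, 4.58 and 6.87 CPM, against 16, 15 and 11.7 CPM with vehicle. For hydrocortisone 10 µM the values were 5.90, 5.71 and 6.14 CPM, against 13.3, 10.9 and 20.9 CPM with vehicle, of which one vehicle library was well above its pair. No library of a hormone group overlapped its vehicle group. ADAMTS5 fell by 2.87-fold, 2.37-fold and 2.54-fold (log2 fold changes -1.52 for dexamethasone 1 µM (SE 0.16, adjusted p = 4.87e-10), -1.25 for dexamethasone 0.01 µM (SE 0.16, adjusted p = 1.19e-07) and -1.35 for hydrocortisone 10 µM (SE 0.16, adjusted p = 1.5e-08)).

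ADAMTS15, a related proteoglycanase, moved the other way. It had 4.98, 7.83 and 8.55 CPM in dexamethasone 1 µM libraries, against 1.30, 1.88 and 2.89 CPM in vehicle libraries. It had 4.14, 4.32 and 5.40 CPM with dexamethasone 0.01 µM, against 1.18, 3.25 and 3.15 CPM with vehicle. It had 6.75, 4.68 and 5.17 CPM with hydrocortisone 10 µM, against 4.89, 3.24 and 2.89 CPM with vehicle. The dexamethasone groups lay above their vehicle groups, while the hydrocortisone group overlapped its own. Its fitted log2 changes over vehicle were 1.81 for dexamethasone 1 µM (SE 0.28, adjusted p = 2.05e-06), 0.84 for dexamethasone 0.01 µM (SE 0.27, adjusted p = 0.0334) and 0.61 for hydrocortisone 10 µM (SE 0.27, adjusted p = 0.141), so the hydrocortisone value did not pass. At 0.01 µM dexamethasone the call was lost without hormone replicate 3 (adjusted p = 0.122) or vehicle replicate 1 (adjusted p = 0.263), and without the libraries above 75% ribosomal RNA the log2 fold change was 0.39 (adjusted p = 0.451). That call was also lost in DESeq2 (adjusted p = 0.106). In edgeR's test it was lost with ribosomal RNA left out of the library sizes (0.118) and with the compared libraries fitted alone (0.204).

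ADAMTS6, a protease linked to fibrillin microfibrils (GRCh38 chromosome 5, 65148736 to 65481920, minus strand), had the smallest adjusted p of all members with dexamethasone 1 µM. It stood at 5.25, 3.80 and 3.73 CPM in those libraries, against 20.02, 18.5 and 17.7 CPM in vehicle libraries. With dexamethasone 0.01 µM it stood at 6.76, 6.51 and 4.42 CPM, against 18.6, 18.2 and 18.2 CPM. With hydrocortisone 10 µM it stood at 4.88, 3.65 and 4.51 CPM, against 10.9, 14.3 and 14.4 CPM. The highest hormone library remained far below the lowest vehicle library in each comparison. Expression fell 4.4-fold, 3.07-fold and 3.04-fold (log2 fold changes -2.14 for dexamethasone 1 µM (SE 0.14, adjusted p = 1.14e-16), -1.62 for dexamethasone 0.01 µM (SE 0.14, adjusted p = 1.3e-12) and -1.6 for hydrocortisone 10 µM (SE 0.13, adjusted p = 1.1e-12)). ADAMTS10, its closest paralogue, passed with hydrocortisone 10 µM only as a marginal call: 2.29, 2.34 and 2.16 CPM, against 5.16, 2.16 and 3.58 CPM with vehicle (log2 fold change -0.66, adjusted p = 0.049). Its libraries overlapped, and the call was lost in 11 of 14 alternatives, among them without the libraries above 75% ribosomal RNA (adjusted p = 0.381; range over the alternatives up to 0.443) and without hormone replicate 2 (adjusted p = 0.0971), hormone replicate 3 (adjusted p = 0.0982), hormone replicate 4 (adjusted p = 0.147), vehicle replicate 1 (adjusted p = 0.443) or vehicle replicate 3 (adjusted p = 0.0837).

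ADAMTS16, which can cleave fibronectin, had 0.623, 1.65 and 1.75 CPM in dexamethasone 1 µM libraries, against 2.60, 2.00 and 3.70 CPM in vehicle libraries. It had 0.99, 1.67 and 1.47 CPM at the lower dose, against 2.19, 2.66 and 3.06 CPM, and 1.39, 1.53 and 1.86 CPM with hydrocortisone 10 µM, against 1.90, 3.74 and 2.40 CPM. The groups did not overlap, although the last gap was narrow. As log2 fold changes these came to -1.04 for dexamethasone 1 µM (SE 0.26, adjusted p = 0.00214), -0.96 for dexamethasone 0.01 µM (SE 0.27, adjusted p = 0.0104) and -0.77 for hydrocortisone 10 µM (SE 0.26, adjusted p = 0.0385). The call was lost at 0.01 µM dexamethasone without hormone replicate 1 (adjusted p = 0.0955) or vehicle replicate 3 (adjusted p = 0.0562), and for hydrocortisone without hormone replicate 2 (adjusted p = 0.136), hormone replicate 3 (adjusted p = 0.112) or vehicle replicate 2 (adjusted p = 0.326). Both calls were also lost in edgeR's test with the compared libraries fitted alone (adjusted p = 0.0804 and 0.0852).

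ADAMTS7, a protease of cartilage oligomeric matrix protein, rose. Dexamethasone 1 µM libraries held 6.41, 7.92 and 9.54 CPM, against 3.74, 2.04 and 2.99 CPM in vehicle libraries. Those with dexamethasone 0.01 µM held 4.95, 5.00 and 6.38 CPM, against 3.21, 2.85 and 2.94 CPM, and those with hydrocortisone 10 µM held 6.63, 5.93 and 7.16 CPM, against 2.17, 4.07 and 4.17 CPM. All hormone libraries were above all of their vehicle libraries. On the log2 scale the fitted changes were 1.44 for dexamethasone 1 µM (SE 0.21, adjusted p = 1.09e-06), 0.85 for dexamethasone 0.01 µM (SE 0.22, adjusted p = 0.00482) and 0.90 for hydrocortisone 10 µM (SE 0.21, adjusted p = 0.00241). ADAMTS12, a close relative that shares this substrate, did not pass in any comparison (log2 fold change -0.09, 95% interval -0.27 to 0.09 for dexamethasone 1 µM). Nor did ADAMTS13, the von Willebrand factor protease.

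Among the procollagen N-proteinases, which trim the amino end of fibrillar procollagens, ADAMTS14 had the largest rise of any called member. It is a low gene, with 22, 51 and 27 counts in dexamethasone 1 µM libraries, against 2, 6 and 4 counts in vehicle libraries, or 1.96, 2.33 and 2.96 CPM, against 0.163, 0.25 and 0.19 CPM. Dexamethasone 0.01 µM libraries held 18, 14 and 0 counts, against 1, 1 and 6; the library at 0 was the one with 94.9% ribosomal RNA. Hydrocortisone 10 µM libraries held 1.99, 1.65 and 1.90 CPM, against 0.544, 0.415 and 0.589 CPM. Fitted log2 fold changes over vehicle were 3.52 for dexamethasone 1 µM (SE 0.57, adjusted p = 3.94e-06), 1.9 for dexamethasone 0.01 µM (SE 0.60, adjusted p = 0.0245) and 1.83 for hydrocortisone 10 µM (SE 0.55, adjusted p = 0.018). Only the 0.01 µM dexamethasone group overlapped its vehicle group, and there the call was lost without hormone replicate 1 (adjusted p = 0.161), vehicle replicate 1 (adjusted p = 0.0699) or vehicle replicate 2 (adjusted p = 0.117); the hydrocortisone call was lost without vehicle replicate 2 (adjusted p = 0.0841). ADAMTS3 fell with dexamethasone 1 µM to 4.89, 4.26 and 5.48 CPM, against 7.24, 7.01 and 6.03 CPM (log2 fold change -0.47, adjusted p = 0.0204), a call lost without hormone replicate 3 (adjusted p = 0.122), vehicle replicate 1 (adjusted p = 0.0812) or vehicle replicate 2 (adjusted p = 0.0701). ADAMTS2 passed with dexamethasone 0.01 µM (log2 fold change 0.71, adjusted p = 0.00904), where 5.94, 5.68 and 9.32 CPM stood against 3.21, 3.44 and 5.87 CPM; its highest value came from the library with 94.9% ribosomal RNA and 19 counts of it. Without the libraries above 75% ribosomal RNA the ADAMTS2 value was 0.30 (adjusted p = 0.413), and the call was also lost without hormone replicate 3 (adjusted p = 0.136), vehicle replicate 1 (adjusted p = 0.0934) or vehicle replicate 2 (adjusted p = 0.0684). DESeq2 lost the ADAMTS2 call too (adjusted p = 0.174). So did edgeR's test with ribosomal RNA left out of the library sizes (0.194) and with the compared libraries fitted alone (0.179).

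**Figure D3:**
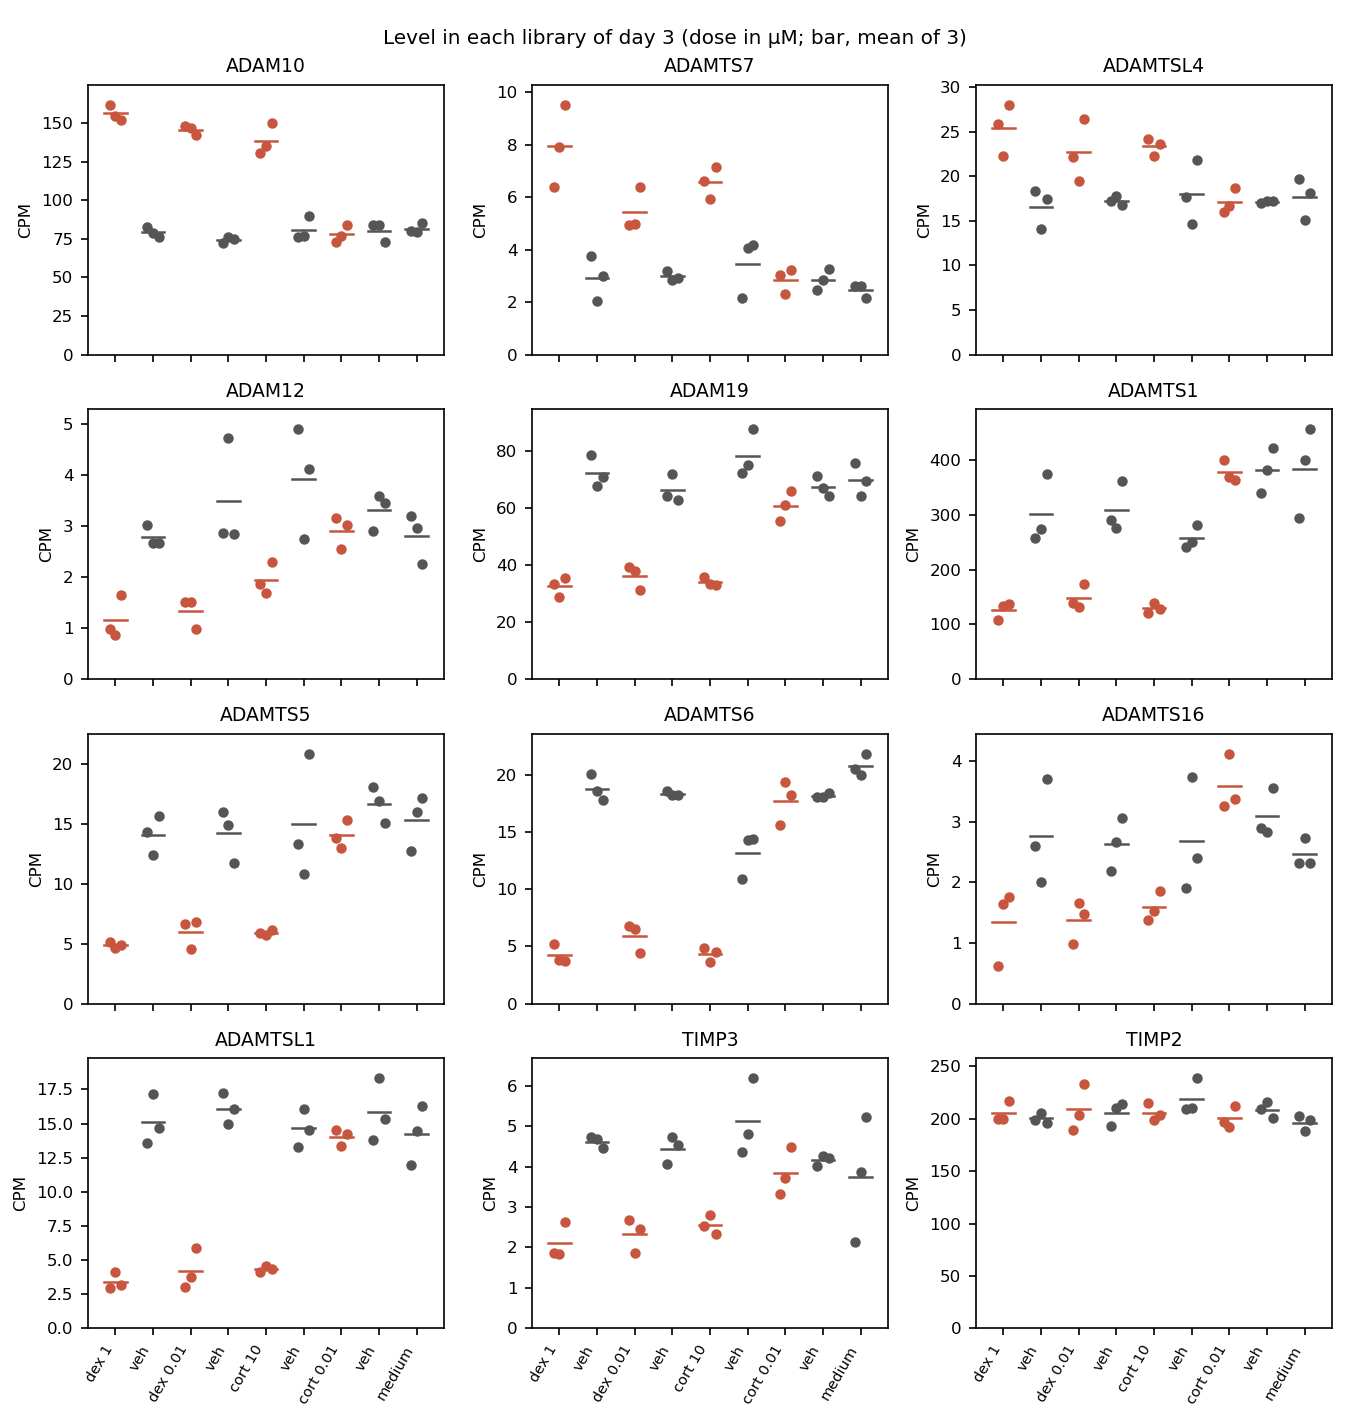
CPM in each library of day 3 for 12 members, with 3 libraries per group and the mean as a bar; each hormone group (red) stands left of its own vehicle (grey), and medium is at the right. ADAM10, ADAMTS7 and ADAMTSL4 are higher and ADAM12, ADAM19, ADAMTS1, ADAMTS5, ADAMTS6, ADAMTS16, ADAMTSL1 and TIMP3 lower in the first 3 hormone groups than in their vehicle groups, while the TIMP2 groups overlap throughout.

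Among the ADAMTS-like genes, ADAMTSL1 (punctin-1; GRCh38 chromosome 9, 17906563 to 18910950, plus strand) fell about as far as ADAMTS6. It had 2.94, 4.12 and 3.18 CPM in dexamethasone 1 µM libraries, against 13.6, 17.2 and 14.7 CPM in vehicle libraries. It had 3.03, 3.80 and 5.89 CPM with dexamethasone 0.01 µM, against 17.2, 15 and 16.1 CPM, and 4.10, 4.59 and 4.37 CPM with hydrocortisone 10 µM, against 13.3, 16.1 and 14.5 CPM. Hormone and vehicle libraries were far apart in all 3. The log2 fold changes were -2.15 for dexamethasone 1 µM (SE 0.16, adjusted p = 3.85e-14), -1.96 for dexamethasone 0.01 µM (SE 0.16, adjusted p = 1.89e-12) and -1.75 for hydrocortisone 10 µM (SE 0.16, adjusted p = 1.67e-11). ADAMTSL4, a fibrillin-1 binding protein, rose modestly, to 25.9, 22.3 and 28.1 CPM with dexamethasone 1 µM, against 18.3, 14.1 and 17.4 CPM. It had 22.2, 19.5 and 26.5 CPM with dexamethasone 0.01 µM, against 17.2, 17.8 and 16.7 CPM, and 24.2, 22.3 and 23.6 CPM with hydrocortisone 10 µM, against 17.7, 14.6 and 21.9 CPM. The groups did not overlap, but in the hydrocortisone comparison the highest vehicle library came close to the lowest hormone library. Its log2 fold changes were 0.61 for dexamethasone 1 µM (SE 0.12, adjusted p = 0.000109), 0.39 for dexamethasone 0.01 µM (SE 0.12, adjusted p = 0.0199) and 0.37 for hydrocortisone 10 µM (SE 0.12, adjusted p = 0.0307).

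The ADAMTSL4 calls at 0.01 µM dexamethasone and 10 µM hydrocortisone were each lost in 7 of 14 alternatives. Without the libraries above 75% ribosomal RNA, the adjusted p was 0.277 for dexamethasone 0.01 µM and 0.0653 for hydrocortisone 10 µM. Among single libraries, the dexamethasone call was lost without hormone replicate 3 (adjusted p = 0.18), vehicle replicate 1 (adjusted p = 0.0606) or vehicle replicate 3 (adjusted p = 0.0649), and the hydrocortisone call without hormone replicate 2 (adjusted p = 0.0896), hormone replicate 4 (adjusted p = 0.0887), vehicle replicate 1 (adjusted p = 0.0954) or vehicle replicate 2 (adjusted p = 0.24). ADAMTSL5 did not pass in any comparison, and ADAMTSL3 passed on day 6 only.

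ADAM10, the main constitutive sheddase and the protease that cuts Notch receptors and N-cadherin, had the smallest adjusted p of the members that rose with dexamethasone 1 µM (GRCh38 chromosome 15, 58588807 to 58749978, minus strand). It had 162, 155 and 152 CPM in dexamethasone 1 µM libraries, against 82.4, 78.6 and 76.3 CPM in vehicle libraries. It had 148, 147 and 142 CPM with dexamethasone 0.01 µM, against 72.1, 76.2 and 75.1 CPM, and 131, 135 and 150.3 CPM with hydrocortisone 10 µM, against 76.1, 76.6 and 89.5 CPM. The groups were separated by a wide gap, with the hydrocortisone group the most spread. ADAM10 rose 1.97-fold, 1.95-fold and 1.72-fold (log2 fold changes 0.98 for dexamethasone 1 µM (SE 0.07, adjusted p = 4.45e-15), 0.97 for dexamethasone 0.01 µM (SE 0.07, adjusted p = 2.04e-14) and 0.78 for hydrocortisone 10 µM (SE 0.07, adjusted p = 8.32e-12)). ADAM17, the TNF convertase and the other main sheddase, did not pass: its log2 fold changes were 0.17, 0.22 and 0.25, with 95% intervals of -0.02 to 0.36, 0.03 to 0.40 and 0.06 to 0.44. ADAM9 fell slightly with dexamethasone 1 µM, to 419 ± 21.1 CPM, against 472 ± 15.9 CPM with vehicle (SD, n = 3 each; log2 fold change -0.17, adjusted p = 0.0196), a call lost without hormone replicate 3 (adjusted p = 0.0942), hormone replicate 4 (adjusted p = 0.0896), vehicle replicate 1 (adjusted p = 0.078) or vehicle replicate 2 (adjusted p = 0.0718).

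The related meltrins ADAM12 and ADAM19, membrane proteases that release growth factors of the EGF and neuregulin families, both fell. ADAM19 had 33.5, 28.7 and 35.6 CPM in dexamethasone 1 µM libraries, against 78.8, 67.9 and 71 CPM in vehicle libraries. ADAM19 had 39.6, 38 and 31.4 CPM with dexamethasone 0.01 µM, against 64.3, 72 and 62.9 CPM, and 35.7, 33.4 and 33 CPM with hydrocortisone 10 µM, against 72.3, 75.4 and 87.8 CPM. No groups overlapped, and the hormone groups held close to the same level. For ADAM19 the log2 fold changes were -1.15 for dexamethasone 1 µM (SE 0.11, adjusted p = 1.98e-11), -0.87 for dexamethasone 0.01 µM (SE 0.11, adjusted p = 4.43e-08) and -1.2 for hydrocortisone 10 µM (SE 0.11, adjusted p = 1.19e-11). ADAM12 was lower in level: 0.979, 0.87 and 1.64 CPM with dexamethasone 1 µM, against 3.01, 2.67 and 2.66 CPM with vehicle. ADAM12 had 1.51, 1.51 and 0.981 CPM with dexamethasone 0.01 µM, against 2.87, 4.72 and 2.85 CPM, and 1.87, 1.68 and 2.30 CPM with hydrocortisone 10 µM, against 4.89, 2.74 and 4.12 CPM. Its groups did not overlap either, with more spread among vehicle libraries. The log2 fold changes of ADAM12 were -1.26 for dexamethasone 1 µM (SE 0.24, adjusted p = 8.97e-05), -1.32 for dexamethasone 0.01 µM (SE 0.25, adjusted p = 0.000103) and -0.99 for hydrocortisone 10 µM (SE 0.24, adjusted p = 0.00268).

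Other ADAM changes were small or of low genes. ADAM15, which carries an integrin-binding RGD motif, fell with dexamethasone 1 µM to 25.5, 26.1 and 28.1 CPM, against 32.7, 34.3 and 31.9 CPM (log2 fold change -0.31, adjusted p = 0.0134); the call was lost without hormone replicate 2 (adjusted p = 0.0568) or vehicle replicate 2 (adjusted p = 0.064). ADAM33 rose there to 1.25, 2.52 and 2.08 CPM, against 0.732, 0.668 and 1.47 CPM, with overlapping libraries (log2 fold change 1.02, adjusted p = 0.0109), and its call was lost without hormone replicate 3 (adjusted p = 0.0973), vehicle replicate 1 (adjusted p = 0.0692) or vehicle replicate 2 (adjusted p = 0.0987). ADAM8, ADAM11, ADAM21, ADAM22 and ADAM32 passed in none of the 16 comparisons.

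Of the 8 tested MMP genes, those that passed in at least 1 of the 3 comparisons were MMP14, MMP15, and the low genes MMP2, MMP11 and MMP17. MMP14 had 53.6, 56.3 and 53.5 CPM in dexamethasone 1 µM libraries, against 43, 46.5 and 46.5 CPM in vehicle libraries. MMP14 had 46.2, 46.4 and 48.6 CPM with dexamethasone 0.01 µM, against 45.1, 47 and 44.3 CPM, and 54.2, 50.6 and 46.7 CPM with hydrocortisone 10 µM, against 42.4, 45.9 and 40.9 CPM. The first and the last of these hormone groups lay above their vehicle groups, and the middle one overlapped. For MMP14 the log2 fold changes were 0.27 for dexamethasone 1 µM (SE 0.07, adjusted p = 0.00607), 0.05 for dexamethasone 0.01 µM (SE 0.07, adjusted p = 0.741) and 0.23 for hydrocortisone 10 µM (SE 0.07, adjusted p = 0.0298). The hydrocortisone call was lost without the libraries above 75% ribosomal RNA (adjusted p = 0.0922, range over the alternatives up to 0.163) and without hormone replicate 2 (adjusted p = 0.163), hormone replicate 3 (adjusted p = 0.0766), vehicle replicate 1 (adjusted p = 0.0936) or vehicle replicate 3 (adjusted p = 0.113). DESeq2 (adjusted p = 0.0503) and edgeR's test with the compared libraries fitted alone (0.105) lost it too.

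MMP2 had 1, 2 and 1 counts in dexamethasone 1 µM libraries, against 1, 6 and 12 in vehicle libraries. It had 2, 2 and 0 counts with dexamethasone 0.01 µM, against 0, 6 and 4, and 1, 2 and 5 counts with hydrocortisone 10 µM, against 2, 7 and 16. The dexamethasone groups overlapped their vehicle groups and did not pass (95% intervals of the log2 fold change -3.27 to 0.01 and -3.12 to 0.43). MMP2 passed with hydrocortisone, at 0.0602, 0.0624 and 0.221 CPM, against 0.544, 0.581 and 0.785 CPM with vehicle, without overlap (log2 fold change -2.44, SE 0.76, adjusted p = 0.0229), a call lost without hormone replicate 2 (adjusted p = 0.0919) or hormone replicate 3 (adjusted p = 0.123).

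MMP1, the interstitial collagenase, was below the count filter but separated the groups. Its counts were 0 in all 9 libraries of dexamethasone 1 µM, dexamethasone 0.01 µM and hydrocortisone 10 µM, against 30 counts over their 9 vehicle libraries. The vehicle libraries of dexamethasone 1 µM had 2, 4 and 4 counts, those of dexamethasone 0.01 µM 1, 3 and 10, and those of hydrocortisone 10 µM 1, 2 and 3, so none was at 0. Taking 3 counts over the pooled hormone libraries as the most that a count of 0 allows, the observed vehicle level was 11.4-fold above it. In the single comparisons the vehicle level was 2.45-fold, 4.57-fold and 3.95-fold above that floor. Hydrocortisone 0.01 µM libraries held 2, 3 and 4 counts of MMP1, against 5, 4 and 4 in vehicle libraries. In a fit without the count filter its adjusted p was 0.00915, 0.00418 and 0.00553 in the 3 comparisons, and 0.999 for hydrocortisone 0.01 µM. The floor covers counting error in the hormone libraries only, and not that of the few vehicle counts. Dexamethasone 0.01 µM replicate 3, which was at 0, held only 1083395 counts other than ribosomal RNA. Among the 25 libraries elsewhere, 3 were also at 0. The other members below the filter had at most 7 (ADAM23), 10 (ADAMTS20) and 7 (MMP25) counts in any library.

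MMP11, stromelysin-3, rose with dexamethasone 1 µM to 1.07, 1.05 and 1.64 CPM, against 0.244, 0.501 and 0.38 CPM (log2 fold change 1.69, adjusted p = 0.0171), a call lost without hormone replicate 4 (adjusted p = 0.0812), vehicle replicate 1 (adjusted p = 0.0835) or vehicle replicate 4 (adjusted p = 0.0519). With hydrocortisone 10 µM the membrane-type MMP15 fell to 10.8, 10.5 and 9.28 CPM, against 13.9, 13.9 and 12.9 CPM (log2 fold change -0.42, adjusted p = 0.032), and the lipid-anchored MMP17 fell to 0.964, 0.437 and 0.619 CPM, against 1.63, 1.49 and 1.32 CPM (log2 fold change -1.13, adjusted p = 0.0236). The MMP15 call was lost without the libraries above 75% ribosomal RNA (adjusted p = 0.0761, range over the alternatives up to 0.162) and without hormone replicate 3 (adjusted p = 0.065), hormone replicate 4 (adjusted p = 0.162), vehicle replicate 1 (adjusted p = 0.0882) or vehicle replicate 2 (adjusted p = 0.0838). That of MMP17 was lost without hormone replicate 3 (adjusted p = 0.154), hormone replicate 4 (adjusted p = 0.0908), vehicle replicate 1 (adjusted p = 0.0626) or vehicle replicate 2 (adjusted p = 0.0555). The MMP17 call was also lost in edgeR's test with the compared libraries fitted alone (adjusted p = 0.056). MMP16 and MMP24, both membrane-type, passed in no comparison.

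Of the 3 inhibitors, TIMP3 fell, TIMP1 fell slightly and TIMP2 did not pass. TIMP3, which binds the matrix and inhibits ADAM17 and the aggrecanases besides MMPs, had 1.87, 1.83 and 2.63 CPM in dexamethasone 1 µM libraries, against 4.72, 4.67 and 4.46 CPM in vehicle libraries. TIMP3 had 2.68, 1.87 and 2.45 CPM with dexamethasone 0.01 µM, against 4.05, 4.72 and 4.53 CPM, and 2.53, 2.81 and 2.34 CPM with hydrocortisone 10 µM, against 4.35, 4.81 and 6.18 CPM. Its hormone libraries all lay below the vehicle libraries. For TIMP3 the log2 fold changes were -1.13 for dexamethasone 1 µM (SE 0.21, adjusted p = 5.85e-05), -0.93 for dexamethasone 0.01 µM (SE 0.22, adjusted p = 0.00169) and -1.0 for hydrocortisone 10 µM (SE 0.21, adjusted p = 0.000543). TIMP3 lies within an intron of SYN3 on the opposite strand; the kit marks strand, but whether the counts use it is not stated.

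TIMP1 had 32.8, 31.5 and 32.9 CPM with dexamethasone 1 µM, against 40.6, 40.9 and 41.1 CPM with vehicle. TIMP1 had 32.1, 32 and 43.2 CPM with dexamethasone 0.01 µM, against 43.7, 39.6 and 39 CPM, and 39.3, 32.3 and 31.1 CPM with hydrocortisone 10 µM, against 41, 46.2 and 41 CPM. At 0.01 µM the library with 94.9% ribosomal RNA sat among the vehicle libraries and the other hormone libraries below them. For TIMP1 the log2 fold changes were -0.34 for dexamethasone 1 µM (SE 0.09, adjusted p = 0.00428), -0.19 for dexamethasone 0.01 µM (SE 0.09, adjusted p = 0.158) and -0.32 for hydrocortisone 10 µM (SE 0.09, adjusted p = 0.0113), and the hydrocortisone call was lost without hormone replicate 3 (adjusted p = 0.0744), hormone replicate 4 (adjusted p = 0.112) or vehicle replicate 2 (adjusted p = 0.0814). That call was also lost in edgeR's test with the compared libraries fitted alone (adjusted p = 0.0529). TIMP2 had 199.6, 199.9 and 217 CPM with dexamethasone 1 µM, against 199, 206 and 196 CPM with vehicle. TIMP2 had 189, 204 and 234 CPM with dexamethasone 0.01 µM, against 193, 209.7 and 214 CPM, and 215, 198 and 203 CPM with hydrocortisone 10 µM, against 209, 210.1 and 239 CPM. All TIMP2 groups overlapped, and the 95% intervals of its log2 fold changes were -0.09 to 0.16, -0.10 to 0.15 and -0.22 to 0.03.

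Promoter sequences are shown for the pair with the largest falls among the 12 shared members, ADAMTS6 and ADAMTSL1, and for ADAM10 and ADAMTS14, which rose. They run from 250 bases before to 50 bases after the RefSeq transcript start on GRCh38.p14, are written 5′ to 3′ on the gene's strand, and carry in capitals each GC box (GGGCGG, or CCGCCC on the other strand), the binding site of Sp1-like factors. The regions are chr5:65481871-65482170, minus strand for ADAMTS6; chr9:18473903-18474202, plus strand for ADAMTSL1; chr15:58749658-58749957, minus strand for ADAM10; and chr10:70672256-70672555, plus strand for ADAMTS14. The ADAMTSL1 start used by RefSeq lies inside the longer GENCODE gene.
ADAMTS6 promoter: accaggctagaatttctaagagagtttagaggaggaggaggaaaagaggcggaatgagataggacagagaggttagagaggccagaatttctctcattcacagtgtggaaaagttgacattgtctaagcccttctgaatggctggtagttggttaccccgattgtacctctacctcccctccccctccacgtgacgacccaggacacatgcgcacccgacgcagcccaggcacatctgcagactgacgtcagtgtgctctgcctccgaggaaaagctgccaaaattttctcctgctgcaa
ADAMTSL1 promoter: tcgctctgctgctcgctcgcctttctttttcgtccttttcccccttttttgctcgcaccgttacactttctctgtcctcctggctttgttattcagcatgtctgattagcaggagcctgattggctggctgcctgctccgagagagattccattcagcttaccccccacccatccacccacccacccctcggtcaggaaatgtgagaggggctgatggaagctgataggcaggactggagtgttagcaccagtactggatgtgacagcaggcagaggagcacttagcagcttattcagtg
ADAM10 promoter: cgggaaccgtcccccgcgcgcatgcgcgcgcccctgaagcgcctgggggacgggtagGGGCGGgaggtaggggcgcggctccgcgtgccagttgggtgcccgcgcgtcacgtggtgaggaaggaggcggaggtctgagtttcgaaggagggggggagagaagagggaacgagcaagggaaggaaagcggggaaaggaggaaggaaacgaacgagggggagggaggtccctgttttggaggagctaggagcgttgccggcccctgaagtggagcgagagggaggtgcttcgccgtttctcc
ADAMTS14 promoter: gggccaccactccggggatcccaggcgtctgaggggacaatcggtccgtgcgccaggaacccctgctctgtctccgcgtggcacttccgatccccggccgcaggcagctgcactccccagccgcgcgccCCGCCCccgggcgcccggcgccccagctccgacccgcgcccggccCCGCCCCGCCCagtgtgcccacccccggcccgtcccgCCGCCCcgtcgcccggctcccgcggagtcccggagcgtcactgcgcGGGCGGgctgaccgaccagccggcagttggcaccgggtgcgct

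ADAMTS6 and ADAMTSL1 hold no GC box and have a GC content of 52% and 54%, ADAM10 holds 1 and ADAMTS14 holds 5, at 68% and 79.7% GC. Whether the boxes go with the direction of change was not tested. Among the other shared members with an entry, ADAM12 and TIMP3, which fell, hold 3 and 5. ADAM19, which also fell, holds 0, and ADAMTS7 and ADAMTSL4, which rose, hold 7 and 4. RefSeq promoters were found for 28 of the 43 members (29 entries), 9 of them among the 12 members changed in all 3 comparisons. None of those 9 holds the AP-1 site TGANTCA or the palindromic glucocorticoid response element on either strand. The AP-1 site is in 7.71% of all 35116 promoters of this length and in 1 member entry (ADAMTS12), and the response element in 0.390% and in 1 member entry (ADAM8). The GC box, a motif chosen after the values were seen, is in 44.9% of all promoters and in 24 of the 29 member entries, which have a median GC content of 74% where all promoters have 58.7%. Overlapping matches were counted separately. A match is a string of letters and not a measured binding site, and sites farther from the start were not searched.

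No effect of the low hydrocortisone dose on these genes was detected. In hydrocortisone 0.01 µM libraries ADAM10 had 72.9, 76.7 and 83.7 CPM, against 83.9, 83.9 and 73.2 CPM in vehicle libraries, and ADAMTS6 had 15.6, 19.3 and 18.2 CPM, against 18, 18 and 18.4 CPM. Their 95% intervals were -0.19 to 0.09 and -0.30 to 0.23 on the log2 scale, and the adjusted p was 1 for every member. The difference between the hydrocortisone doses, each corrected for its vehicle, passed for 6 members, 1 upward and 5 downward, where 4.09% of all genes passed (1.73% upward and 2.36% downward): ADAM10 (10 µM effect minus 0.01 µM effect 0.83), ADAM19 (-1.05), ADAMTS1 (-0.98), ADAMTS5 (-1.1), ADAMTS6 (-1.57) and ADAMTSL1 (-1.58), with adjusted p between 5.19e-08 and 0.00118. With ribosomal RNA left out of the library sizes the count was 11, and the share of 4.09% belongs to the main fit alone.

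Dexamethasone and hydrocortisone shared one dose, 0.01 µM, and there they differed. The dexamethasone effect minus the hydrocortisone effect passed for 7 members, 1 upward and 6 downward, where 4.98% of all genes passed (2.07% upward and 2.91% downward): 1.01 for ADAM10 (95% interval 0.81 to 1.21), -1.78 for ADAMTSL1 (-2.23 to -1.33), -1.59 for ADAMTS6 (-1.96 to -1.21), -1.14 for ADAM12, -1.05 for ADAMTS1, -1.0 for ADAMTS5 and -0.72 for ADAM19 on the log2 scale. Adjusted p lay between 5.67e-10 and 0.0389, and the ADAM12 call was lost in 9 of 18 alternatives (adjusted p up to 0.165). TIMP3 did not pass (difference -0.82, 95% interval -1.42 to -0.22, adjusted p = 0.114), nor did ADAMTS7 (0.84, 0.23 to 1.45, adjusted p = 0.108). This was the only pair of compounds at a matched dose and time; dexamethasone 1 µM and hydrocortisone 10 µM are set side by side above and not compared.

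Between the dexamethasone doses no member differed beyond error on day 3. The difference of the 2 dose effects passed for 0 members in edgeR's test (0.0476% of all genes) and for 0 in DESeq2, while 4 had an unadjusted p below 0.05: ADAMTS6 (1 µM effect minus 0.01 µM effect -0.52, 95% interval -0.89 to -0.14), ADAMTS15 (0.97, 0.19 to 1.74), ADAM33 (1.18, 0.29 to 2.06) and MMP14 (0.22, 0.01 to 0.43). ADAM10 was the best bounded, with a difference of 0.01 (95% interval -0.18 to 0.21). For ADAMTS14 the interval was wide (-0.04 to 3.28), which includes both no difference and a several-fold larger rise at 1 µM.

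After 3 days without hormone, most of the changes that remained were in flasks that had received dexamethasone 1 µM; the difference between its doses on day 6 was not tested. These flasks showed 15 changed members on day 6, 6 higher and 9 lower, where 10.2% of all genes passed against the 4 vehicle libraries of that day (5.13% higher and 5.03% lower). Of these, 12 had also passed on day 3 (ADAM9, ADAM10, ADAM12, ADAM19, ADAMTS1, ADAMTS5, ADAMTS6, ADAMTS7, ADAMTS14, ADAMTS15, ADAMTSL1 and TIMP3). The share of all genes that passed on both days was not counted. Flasks that had received 0.01 µM showed 0 changed members in edgeR's test (0.0833% of all genes) and 0 in DESeq2, with 3 at an unadjusted p below 0.05 (ADAMTS6, ADAMTS7 and MMP19). Those of hydrocortisone 10 µM showed 2 (0.892% of all genes), and those of hydrocortisone 0.01 µM showed 0 in both tests (0.0892% of all genes), with 3 at an unadjusted p below 0.05 (ADAMTS1, ADAMTS7 and ADAMTS12). The day 6 comparisons share their 4 vehicle libraries.

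ADAM10 had 115, 128 and 123 CPM on day 6 after dexamethasone 1 µM, against 70.4, 67.6, 85.5 and 77.9 CPM in the vehicle libraries of the day. ADAM10 had 77.2, 83.4 and 82 CPM after dexamethasone 0.01 µM and 86.7, 89.7 and 92.2 CPM after hydrocortisone 10 µM. After the high dexamethasone dose all libraries were above the vehicle range, and after hydrocortisone 10 µM all were just above it. Its day 6 log2 fold changes were 0.70 (adjusted p = 4.36e-11), 0.11 (adjusted p = 0.751) and 0.25 (adjusted p = 0.0416). ADAMTS6, the other member called after hydrocortisone 10 µM, had 18.2, 14.7 and 16.9 CPM there (log2 fold change -0.50, adjusted p = 0.0331). The hydrocortisone call of ADAM10 was lost without the libraries above 75% ribosomal RNA (adjusted p = 0.105, range over the alternatives up to 0.201), and so was that of ADAMTS6 (adjusted p = 0.111, up to 0.341).

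ADAMTS6 had 10.9, 9.14 and 10.9 CPM on day 6 after dexamethasone 1 µM, against 29.1, 22, 19.9 and 23.6 CPM with vehicle. ADAMTS5 had 7.37, 7.97 and 7.90 CPM, against 18.3, 19, 16.7 and 17.7 CPM. ADAMTSL1 had 6.09, 7.72 and 9.56 CPM, against 15.1, 14, 14.5 and 16 CPM. Every hormone library was below every vehicle library in all 3. Their day 6 log2 fold changes were -1.18 (SE 0.13, adjusted p = 1.58e-09), -1.21 (SE 0.15, adjusted p = 9.8e-08) and -0.93 (SE 0.15, adjusted p = 1.2e-05). TIMP3 averaged 2.27 ± 0.195 CPM, against 4.15 ± 0.549 CPM (SD, n = 3 and 4; log2 fold change -0.86, adjusted p = 0.00232). ADAM19 averaged 39.7 ± 5.81 CPM, against 65.7 ± 4.84 CPM (-0.73, adjusted p = 9.26e-07), and ADAMTS1 211 ± 12.4 CPM, against 338 ± 45.3 CPM (-0.67, adjusted p = 0.000489).

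Of the members that passed with dexamethasone 1 µM on day 6 and not on day 3, MMP15 fell to 9.44 ± 0.88 CPM, against 13.1 ± 1.72 CPM with vehicle (adjusted p = 0.0109), and MMP19, a secreted MMP of broad substrate range, rose to 1.64 ± 0.0487 CPM, against 0.81 ± 0.409 CPM (SD, n = 3 and 4; log2 fold change 1.13, adjusted p = 0.00282). The MMP15 call was lost without dexamethasone 1 µM replicate 3 of day 6 (adjusted p = 0.0856) and without the vehicle library of dexamethasone 0.01 µM (adjusted p = 0.0564). ADAMTSL3 had 17, 12 and 10 counts, with libraries that overlapped vehicle, and its call was lost in 8 of 14 alternatives (log2 fold change between 0.59 and 2.64, adjusted p up to 0.560), the lowest value, with adjusted p = 0.5, being that without the libraries above 75% ribosomal RNA. The ADAM12 call of day 6 was lost without hormone replicate 2 (adjusted p = 0.114) or hormone replicate 3 (adjusted p = 0.0671), and that of ADAMTS15 without hormone replicate 3 (adjusted p = 0.0813). Whether the effects of the days differ for these genes was tested only by the washout change below.

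The washout change, the day 6 effect minus the day 3 effect with each taken against all vehicle groups of its day, passed for 4 members after dexamethasone 1 µM (1.68% of all genes, 1.11% upward and 0.571% downward). It passed for 11 after dexamethasone 0.01 µM (6.55%, 4.01% upward and 2.54% downward) and for 9 after hydrocortisone 10 µM (6.97%, 4.31% upward and 2.66% downward). After dexamethasone 1 µM, ADAMTSL1 (1.24, adjusted p = 4.17e-05) and ADAMTS6 (0.81, adjusted p = 0.00202) came back in part, ADAMTSL4 (-0.62) moved down, and the change of ADAMTS1 (0.62, adjusted p = 0.0467) was lost in 16 of 29 alternatives, among them without the libraries above 75% ribosomal RNA (0.75, adjusted p = 0.0684). The ADAMTS5 change after that dose did not pass (0.40, 95% interval 0.01 to 0.79). After dexamethasone 0.01 µM, ADAM10 (-0.78) and ADAMTSL4 (-0.62) moved down, and ADAM12, ADAM19, ADAMTS1, ADAMTS3, ADAMTS5, ADAMTS6, ADAMTS16, ADAMTSL1 and TIMP3 moved up, by 0.60 (ADAMTS3) to 1.78 (ADAMTSL1). The ADAMTS3 change was lost in 18 of 29 alternatives (adjusted p up to 0.308) and that of TIMP3 in 9 of 29 (up to 0.176), both also without the libraries above 75% ribosomal RNA (adjusted p = 0.135 and 0.0604). After hydrocortisone 10 µM, ADAM10 (-0.56), ADAMTS14 (-2.07) and ADAMTSL4 (-0.64) moved down and ADAM19, ADAMTS1, ADAMTS5, ADAMTS6, ADAMTSL1 and MMP17 up. There the ADAMTS14 change was lost in 17 of 28 alternatives (adjusted p up to 0.200) and that of MMP17 in 9 of 29 (up to 0.149). The ADAMTSL4 washout changes of both dexamethasone doses were lost without the libraries above 75% ribosomal RNA (-0.40 and -0.36, adjusted p = 0.247 and 0.213).

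**Figure D4:**
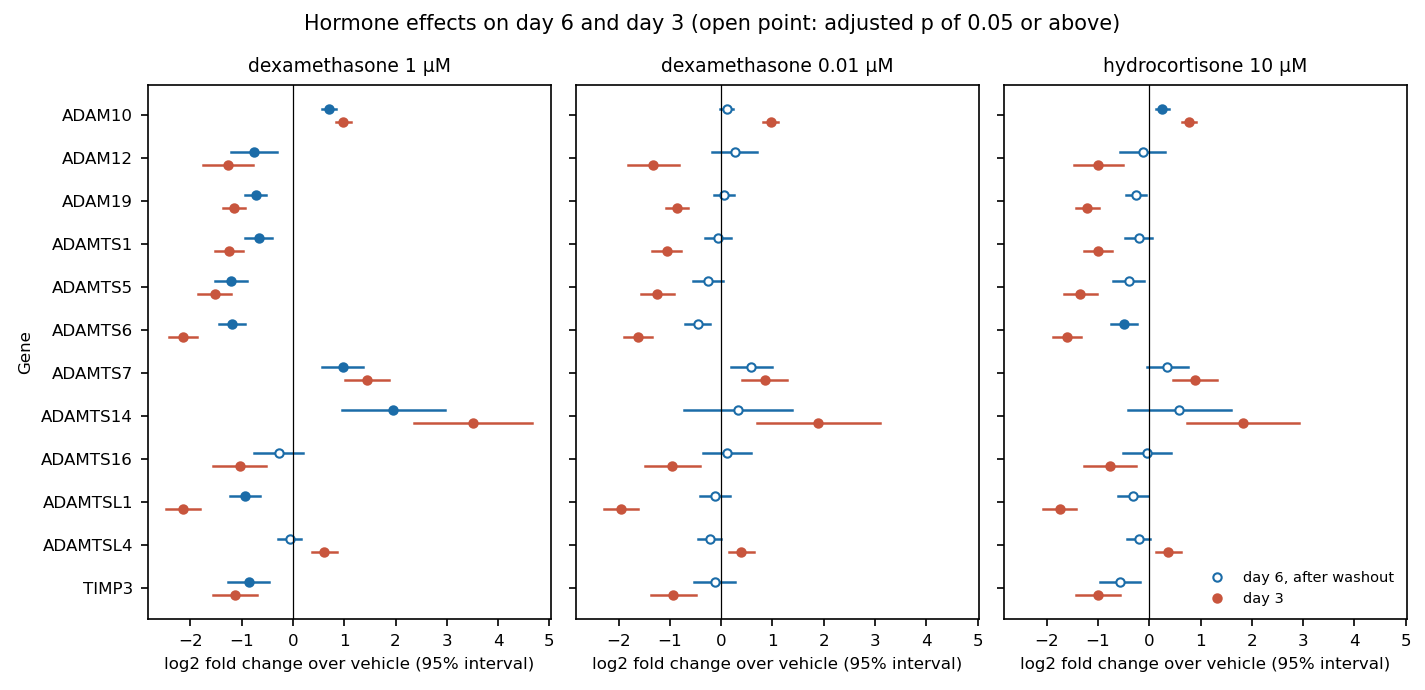
Log2 fold change over vehicle with its 95% interval for the 12 members changed in all 3 comparisons of day 3, on day 6 (blue) and on day 3 (red), for dexamethasone 1 µM, dexamethasone 0.01 µM and hydrocortisone 10 µM; open points did not pass. On day 6 the blue points are filled for 10 members after dexamethasone 1 µM, for 0 after dexamethasone 0.01 µM and for 2 after hydrocortisone 10 µM.

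Few differences were found for the ethanol vehicle or between the days in vehicle. Vehicle against medium on day 3 gave 0 called members in edgeR's test (0% of all genes) and 0 in DESeq2, with 4 at an unadjusted p below 0.05 (ADAMTS1, ADAMTS6, MMP19 and TIMP1; ADAMTS6 -0.29, 95% interval -0.50 to -0.09). Between vehicle libraries of day 6 and day 3, ADAMTS6 alone passed (0.505% of all genes), with 23.7 ± 3.95 CPM on day 6 and 17.1 ± 2.58 CPM on day 3 (SD, n = 4 and 12; log2 difference 0.47, adjusted p = 0.00454). The highest day 6 value was that of the dexamethasone 1 µM vehicle library, which held 77.1% ribosomal RNA, and the call was lost without it (adjusted p = 0.171) and without all libraries above 75% ribosomal RNA (adjusted p = 0.138).

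Partners and substrates of the proteases moved in both directions with dexamethasone 1 µM. Of 23 tested regulators from outside the family (activators, inhibitors and sheddase cofactors), 9 rose and 5 fell, where 10.3% of all genes rose and 12.3% fell, with a median log2 fold change of 0.17 against 0.02 over all genes. PLAUR, the urokinase receptor, averaged 6.23 ± 0.156 CPM in dexamethasone 1 µM libraries and 20.6 ± 3.18 CPM in vehicle libraries (log2 fold change -1.72, adjusted p = 5.36e-15). SPOCK1, a secreted proteoglycan that regulates MMPs, averaged 3.61 ± 0.232 CPM in dexamethasone 1 µM libraries and 12.5 ± 1.48 CPM in vehicle libraries (log2 fold change -1.79, adjusted p = 5.4e-15). Of 8 related metalloendopeptidases, 3 rose and 3 fell (median -0.46, beside the same shares of all genes), with BMP1, the procollagen C-proteinase, at 20.7 ± 2.23 CPM in dexamethasone 1 µM libraries and 10.7 ± 0.525 CPM in vehicle libraries (log2 fold change 0.94, adjusted p = 3.38e-09). PAPPA, which cleaves IGF-binding proteins, averaged 10.2 ± 1.14 CPM in dexamethasone 1 µM libraries and 19.3 ± 1.04 CPM in vehicle libraries (log2 fold change -0.91, adjusted p = 4.84e-07), and TLL1, a relative of BMP1, averaged 2.42 ± 0.472 CPM in dexamethasone 1 µM libraries and 5.75 ± 0.36 CPM in vehicle libraries (log2 fold change -1.25, adjusted p = 1.08e-06).

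Of 18 tested matrix substrates, 6 rose and 4 fell (median 0.11), beside the same 10.3% and 12.3% of all genes. NID2, a basement membrane linker, averaged 71.1 ± 5.38 CPM in dexamethasone 1 µM libraries and 2.87 ± 0.422 CPM in vehicle libraries (log2 fold change 4.62, adjusted p = 1.02e-25), and COL5A1, a fibrillar collagen chain that procollagen proteinases process, averaged 189 ± 14.2 CPM in dexamethasone 1 µM libraries and 66.4 ± 1.92 CPM in vehicle libraries (log2 fold change 1.51, adjusted p = 2.9e-19). FBN1, fibrillin-1, averaged 79.2 ± 2.97 CPM in dexamethasone 1 µM libraries and 19.4 ± 1.17 CPM in vehicle libraries (log2 fold change 2.03, adjusted p = 2.76e-15). Of 28 tested shedding substrates, 7 rose and 7 fell (median 0.19). NRG1, a neuregulin released by ADAM proteases, averaged 12.1 ± 0.526 CPM in dexamethasone 1 µM libraries and 30.5 ± 2.10 CPM in vehicle libraries (log2 fold change -1.33, adjusted p = 7.52e-16). ALCAM, an adhesion molecule, averaged 588 ± 18.2 CPM in dexamethasone 1 µM libraries and 309 ± 18.4 CPM in vehicle libraries (log2 fold change 0.93, adjusted p = 9.87e-15), and the receptor kinase AXL averaged 381 ± 23.2 CPM in dexamethasone 1 µM libraries and 637 ± 24 CPM in vehicle libraries (log2 fold change -0.74, adjusted p = 3.46e-12). Of 12 tested AP-1 and ETS factors, 3 rose and 5 fell (median 0.05), among them FOSL1, an AP-1 subunit, at 20.2 ± 2.33 CPM in dexamethasone 1 µM libraries and 47.7 ± 3.94 CPM in vehicle libraries (log2 fold change -1.24, adjusted p = 1.08e-12), and ETS1 at 45.7 ± 2.99 CPM in dexamethasone 1 µM libraries and 86.6 ± 4.92 CPM in vehicle libraries (log2 fold change -0.92, adjusted p = 8.17e-13). With hydrocortisone 0.01 µM no gene of these lists passed. The lists are described by their counts and medians alone.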

How the data were processed

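Total RNA of 43 HMC3 flask samples was sequenced (stranded total RNA kit, paired-end, per the labels' protocols). The authors deposited raw counts per gene for all 43 libraries; per the submitters' processing notes FastQC, STAR, Subread and featureCounts were used with GRCh38. Tool versions, and whether counting used strand, are not stated there. Symbols and exon lengths came from name tables and GENCODE 29. Genes were filtered with edgeR's filterByExpr (minimum count 10, scaled to library size, and minimum total 15), which left 16816 of 20052. Because some groups hold 1 library, passing that limit in 1 library was enough to keep a gene.

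All 43 libraries entered one fit with 17 groups and 26 residual degrees of freedom: edgeR 4.0.16 quasi-likelihood test, TMM scaling, robust dispersion, R 4.3.3 with limma 3.58.1, Benjamini-Hochberg over all tested genes, threshold 0.05, 16 comparisons. Each hormone group of day 3 was set against its own vehicle, and those of day 6 against the 4 single vehicle libraries of that day. The same steps were tested on simulated counts. DESeq2 1.42.0, RLE scaling, no count filter, a replicate block, the compared libraries alone and each library left out were the alternatives. Of 39 replicate pairs none agreed within counting noise (variance 1.53 to 3.33 times that of counting). This check cannot show that libraries come from separate flasks, since library preparation also adds variance. Each library was counted as 1 sample because the labels name separate flasks.

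The members and gene lists were chosen with earlier results of these data known. Members were named with values where they passed in at least 1 comparison, plus ADAM17 and the TIMP genes; from each other list, up to 3 passing genes of smallest p were named. A gene of the regulator list that met this rule is not reported here. Promoters came from RefSeq (GRCh38.p14); protein sequences were not used here.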

Additional observations from a re-analysis of the deposited data

Results flagged for a closer look

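Effects that differed between days, doses or compounds by a test of the difference itself are gathered here as log2 values; each test was edgeR's quasi-likelihood test with Benjamini-Hochberg adjustment over all tested genes.

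The day 6 effect minus the day 3 effect after dexamethasone 1 µM passed for ADAMTS1 (0.62), ADAMTS6 (0.81), ADAMTSL1 (1.24) and ADAMTSL4 (-0.62). After dexamethasone 0.01 µM the same difference passed for ADAM10 (-0.78), ADAM12 (1.53), ADAM19 (1.03), ADAMTS1 (1.01), ADAMTS16 (1.15), ADAMTS3 (0.60), ADAMTS5 (1.07), ADAMTS6 (1.05), ADAMTSL1 (1.78), ADAMTSL4 (-0.62) and TIMP3 (0.85). After hydrocortisone 10 µM it passed for ADAM10 (-0.56), ADAM19 (0.80), ADAMTS1 (1.05), ADAMTS14 (-2.07), ADAMTS5 (0.94), ADAMTS6 (1.47), ADAMTSL1 (1.5), ADAMTSL4 (-0.64) and MMP17 (1.35). Of these changes, ADAMTS1 after dexamethasone 1 µM (16 of 29), ADAMTS3 after dexamethasone 0.01 µM (18 of 29) and ADAMTS14 after hydrocortisone 10 µM (17 of 28) were lost in most alternatives, and TIMP3 after dexamethasone 0.01 µM and MMP17 after hydrocortisone 10 µM in 9 of 29 each. The difference of the day 6 effects between doses was not tested, so the counts after the doses are not shown to differ.

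The effect of hydrocortisone 10 µM minus that of 0.01 µM on day 3 passed for ADAM10 (0.83), ADAM19 (-1.05), ADAMTS1 (-0.98), ADAMTS5 (-1.1), ADAMTS6 (-1.57) and ADAMTSL1 (-1.58). At 0.01 µM on day 3, the effect of dexamethasone minus that of hydrocortisone passed for ADAM10 (1.01), ADAM12 (-1.14), ADAM19 (-0.72), ADAMTS1 (-1.05), ADAMTS5 (-1.0), ADAMTS6 (-1.59) and ADAMTSL1 (-1.78). ADAM10, ADAM19, ADAMTS1, ADAMTS5, ADAMTS6 and ADAMTSL1 passed in both; these differences share the hydrocortisone 0.01 µM libraries and their vehicle. No explanation of any of these differences was tested.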

How the results depend on the processing

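None of the 107 called values of single members changed sign under the alternatives run for it; uncalled values and the other gene lists were not recomputed. Of the 107, edgeR's RLE scaling lost 1, no count filter 5 and ribosomal RNA left out of the library sizes 8. Leaving out the libraries above 75% ribosomal RNA lost 16, an alternative chosen after seeing the data. DESeq2 size factors and test lost 10 and kept 95. The compared libraries alone were fitted for the day 3 comparisons only, where 10 calls were lost and 40 kept. Over all fits that left out 1 library, 144 values were lost and 986 kept.

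Counts of called members that moved by over 1.5 times were as follows, without the shares of all genes under each alternative. With the compared libraries alone, dexamethasone 0.01 µM on day 3 gave 9 and hydrocortisone 10 µM gave 11. Hydrocortisone 10 µM on day 6 gave 1 without the count filter and 0 without the libraries above 75% ribosomal RNA, and hydrocortisone 0.01 µM on day 6 gave 1 with the day 6 libraries fitted alone. With ribosomal RNA left out of the library sizes the hydrocortisone dose comparison gave 11. Vehicle of day 6 against day 3 gave 0 without the libraries above 75% ribosomal RNA. The cause of these changes was not tested. Leaving out 1 library at a time gave 16 to 19 for dexamethasone 1 µM on day 3, 10 to 14 for dexamethasone 0.01 µM, 11 to 15 for hydrocortisone 10 µM (11 without its replicate 3), 11 to 15 for dexamethasone 1 µM on day 6, and 0 to 2 for hydrocortisone 10 µM on day 6 (0 without its replicate 3, its replicate 4 or the dexamethasone 1 µM vehicle). Washout gave 2 to 5 after dexamethasone 1 µM (2 without its replicate 4 of either day or its day 6 vehicle), 8 to 11 after dexamethasone 0.01 µM and 7 to 10 after hydrocortisone 10 µM. Vehicle of day 6 against day 3 gave 0 to 1.

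Replicate numbers were not taken to pair the samples in the main fit. The deviations of same-numbered hormone and vehicle libraries correlated above 0.1 in 2 of 9 pairs. Those of day 6 and day 3 libraries did in 7 of 12 (median r 0.149), and in 3 of 24 with different numbers (median r -0.035). Day 6 and day 3 libraries of one number may therefore share a flask, while the main washout tests treat them as independent. With the replicate number as a block, hydrocortisone 10 µM gave 15 members on day 3 and 1 on day 6, and dexamethasone 1 µM and 0.01 µM gave 20 and 14 on day 3; the hydrocortisone calls lost on day 3 included ADAMTS14 (adjusted p = 0.0546) and MMP15 (0.0565). With the flask as a block, washout gave 4, 9 and 11 members after dexamethasone 1 µM, dexamethasone 0.01 µM and hydrocortisone 10 µM, and the ADAMTS3 (adjusted p = 0.186), TIMP3 (0.0845) and ADAMTS14 (0.200) changes were lost. Depth limits MMP2, MMP11, MMP16, ADAMTS14 and ADAMTSL3, which had few counts in most libraries.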
